A study of Homo sapiens with 9 samples.

Results

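The spliceosomal small nuclear RNAs described here are 8 genes: RNU4-1 and RNU4-2 (U4), RNU5A-1 and RNU5B-1 (U5), RNU4ATAC (U4atac), RNU6ATAC (U6atac), RNU11 (U11) and RNU12 (U12). They were chosen by gene symbol, out of a table of 60829 rows, and 10 rows carry one of these names. Of those, 8 are the snRNA genes themselves and 2 are long noncoding RNA rows that share the names RNU11 and RNU12. The table compares H1 cells, an established human embryonic stem cell line, in which HERVHlin on chromosome X, named after the endogenous retrovirus HERVH, was knocked out, with a control H1 clone whose genotype label is WT. Each group is 1 clone, grown on vitronectin in mTESR medium, and its libraries come from sequential passages: 5 of the chrX-KO clone and 4 of the chrX-ctrl clone. A p-value therefore measures the spread between passages of 1 clone, and clone and genotype cannot be told apart. A treatment label on the samples reads differentiated cells.

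U4 and U5 belong to the major spliceosome, which removes nearly all introns, and U4atac, U6atac, U11 and U12 to the minor spliceosome, which removes a rare intron class and uses U5 as well. U4 holds U6 in a paired, inactive form until the spliceosome is activated, and U4atac does the same for U6atac. U5 holds the ends of the exons together, while U11 and U12 recognise the 5′ splice site and the branch site of minor introns. All but U6 and U6atac are made by RNA polymerase II and gain a ring of Sm proteins in the cytoplasm; U6 and U6atac are made by RNA polymerase III and bind LSm proteins.

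The sequences of 6 members are printed because they show which members can share reads and which carry the letters AATTTTT, of the kind that Sm rings bind. They are the GENCODE 29 transcripts on GRCh38, 5′ to 3′ on the strand of the gene, with T for U. In the U4 pair the capitals mark the positions at which the pair differs; in the minor members they mark those letters.
RNU4-1: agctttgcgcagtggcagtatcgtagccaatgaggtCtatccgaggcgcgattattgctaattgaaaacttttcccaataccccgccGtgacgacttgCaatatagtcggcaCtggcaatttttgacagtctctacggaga
RNU4-2: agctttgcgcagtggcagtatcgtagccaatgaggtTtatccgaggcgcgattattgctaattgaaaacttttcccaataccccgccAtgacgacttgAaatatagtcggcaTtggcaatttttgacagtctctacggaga
RNU4ATAC: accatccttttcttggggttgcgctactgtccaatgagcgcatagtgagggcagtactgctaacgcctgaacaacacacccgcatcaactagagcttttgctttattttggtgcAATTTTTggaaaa
RNU6ATAC: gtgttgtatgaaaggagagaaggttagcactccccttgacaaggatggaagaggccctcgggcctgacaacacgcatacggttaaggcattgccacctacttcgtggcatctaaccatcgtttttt
RNU11: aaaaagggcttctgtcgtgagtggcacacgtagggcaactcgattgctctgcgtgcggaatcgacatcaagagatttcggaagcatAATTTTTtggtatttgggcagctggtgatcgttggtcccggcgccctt
RNU12: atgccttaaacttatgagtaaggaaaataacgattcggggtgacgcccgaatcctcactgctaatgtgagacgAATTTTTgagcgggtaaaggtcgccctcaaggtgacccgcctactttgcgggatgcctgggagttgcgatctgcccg

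RNU4-1 (chr12:120293097-120293237) and RNU4-2 (chr12:120291763-120291903) lie next to each other on the minus strand and differ at 4 of 141 positions, C37T, G88A, C99A and C113T (the RNU4-1 base first, positions counted from 1 at the 5′ end). They are 97.2% identical, so reads that miss the differing positions fit either gene. RNU5A-1 and RNU5B-1 are close copies of each other as well, and how the authors' counting divided reads within either pair was not measured. RNU4ATAC (chr2:121530881-121531007, plus strand), RNU6ATAC (chr9:134164439-134164564, minus strand), RNU11 (chr1:28648600-28648733, plus strand) and RNU12 (chr22:42615244-42615393, plus strand) have no near-identical partner among the 8. RNU4ATAC lies inside CLASP1 and AC012447.1 without touching an exon of either. No other GENCODE 29 transcript was identical to a member over its whole length. The long noncoding row named RNU12 begins with the whole RNU12 snRNA, and RNU11 contains the long noncoding row of its name. The letters AATTTTT, searched on both strands, occurred once on the sense strand of 5 of the 6 printed members and on neither strand of RNU6ATAC. They were found on the sense strand of 7.12% of the 997 GENCODE 29 transcripts of 126 to 150 bases, and on either strand of 8.73%.

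Libraries held 19838682 to 31192630 reads, here whole counts recovered from the deposited normalized counts and summed over all rows. The member rows took 0.0999% to 0.241% of them. Protein-coding rows took 26.3% to 50.8% of the reads, 7SL RNA 7.48% to 15.1%, and rows with miRBase-style identifiers 5.28% to 31.4%, the last being highest in knockout library 1. Of the 3 rows that the authors marked as the knocked-out element, gene.human_00015544 measured 57.5 ± 18.4 normalized counts in the knockout clone and 2699.5 ± 1198 in the control clone (SD, n = 5 and 4). The row gene.human_00001528 was at 116 ± 35.9 and 698 ± 299, and gene.human_00011326 at 1452 ± 307 and 2403 ± 841, in the knockout and control clone. All 6 pluripotency markers were detected in both clones, POU5F1 at 7899 ± 1424 and 10768 ± 4092 normalized counts in the knockout and control clone (SD, n = 5 and 4). Of the 10 markers of differentiated or feeder cells, SOX17, FOXA2 and CDX2 were at 0 in all 5 knockout libraries and averaged below 1 in the control clone. TBXT, GATA4 and HAND1 averaged 0.382, 0.992 and 0.827 in the knockout clone, against 1.95, 2.13 and 1.95 in the control clone, and PAX6, detected in all 9 libraries, 10.1 ± 5.28 and 4.47 ± 1.58. THY1, which stem cells express as well, COL1A1 and COL1A2 were detected in both clones, COL1A1 at 417 ± 135 and 716 ± 205.

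No snRNA of the 8 passed the test between the clones, and each difference lay within the spread between libraries. The log2 fold changes of knockout over control ran from -0.51 for RNU4ATAC to -0.0038 for RNU5A-1, and the 95% intervals from -1.66 to 1.21. These values are on the log2(normalized count + 1) scale, used unless stated otherwise. A limma fit across 27777 tested rows called 150 of them at an adjusted p under 0.05 (0.54%), and 0 of the 9 tested member rows. No member row had an unadjusted p under 0.05, against 8.63% of all tested rows, and in none did the libraries of the clones separate, against 3.95%. The count tests on the recovered reads also called 0 of the 9, against 0.544% of tested rows by edgeR and 2.14% by DESeq2. In the authors' deposited table, which called 2.05% of the rows that have an adjusted p there, the adjusted p of the members ran from 0.819 to 0.984. The intervals are wide: for each of the 8 the lower bound lies below -1 log2 unit.

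RNU4-1, one of the U4 genes, was at 9091, 13897, 15367, 6869 and 4566 normalized counts in knockout libraries 1 to 5, against 10299, 20187, 16441 and 6402 in control libraries 1 to 4. Libraries 2 and 3 of each clone were the highest, and the ranges of the clones overlapped. The means were 9958 ± 4587 in the knockout clone and 13332 ± 6161 in the control clone (SD, n = 5 and 4 here and below), and the difference did not pass the test (log2 fold change -0.43, SE 0.44, 95% interval -1.40 to 0.55, limma adjusted p = 0.816). RNU4-2 measured 7347, 12617, 13234, 4483 and 3342 in the knockout libraries, against 10656, 14111, 13582 and 4716 in the control libraries. It followed the order of RNU4-1, with knockout libraries 4 and 5 and control library 4 at the low end. Its means were 8205 ± 4555 and 10766 ± 4310.2 in the knockout and control clone (SD), with overlapping ranges (log2 fold change -0.48, SE 0.48, 95% interval -1.56 to 0.61, limma adjusted p = 0.816).

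RNU5A-1, a U5 gene used by both spliceosomes, stood at 7566, 9223, 9317, 3159 and 1827 in knockout libraries 1 to 5, against 7186, 6954, 5983 and 2446 in control libraries 1 to 4. Knockout libraries 1 to 3 were above every control library, and knockout library 5 was below all of them. The means were 6218 ± 3503 in the knockout clone and 5642 ± 2194 in the control clone (SD), and the fitted log2 fold change was near 0 (log2 fold change -0.0038, SE 0.54, 95% interval -1.22 to 1.21, limma adjusted p = 0.999). For RNU5B-1, the other U5 gene of the 8, the values were 5559.9, 9223, 8359.5, 4596 and 2628 in the knockout libraries and 9692, 13901, 9686 and 2551 in the control libraries. Controls 1 to 3 were above all 5 knockout libraries and control 4 was below all of them, so that the order is turned round from RNU5A-1 in libraries 1 to 3. The means of 6073 ± 2714 in the knockout clone and 8957 ± 4710.1 in the control clone (SD) did not pass the test (log2 fold change -0.46, SE 0.52, 95% interval -1.63 to 0.71, limma adjusted p = 0.828).

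**Figure D1:**
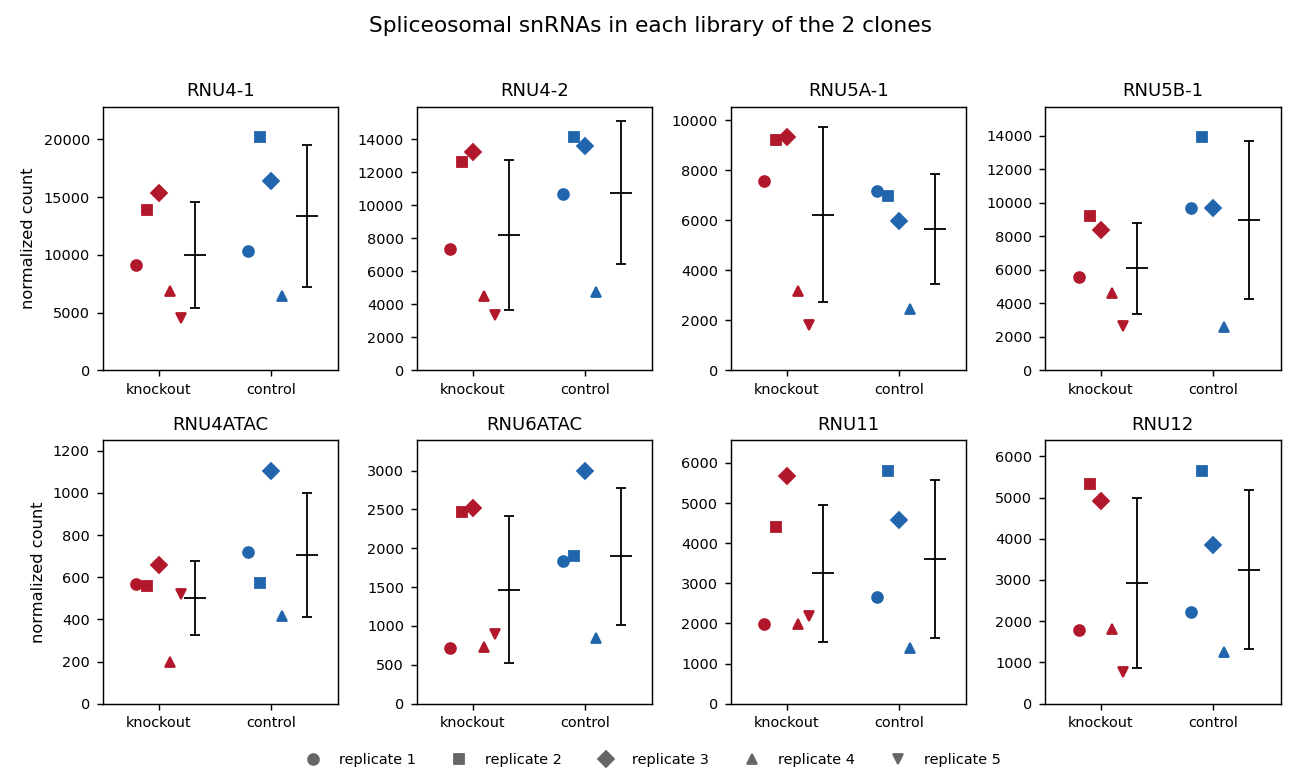
Normalized counts (linear axes, 1 panel for each of the 8 snRNAs) by library: knockout libraries left, control libraries right, points for libraries with their replicate number, bars for the mean ± SD. In every panel the clones overlap, and control library 4 is the lowest control.

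RNU4ATAC, the partner RNA of U6atac and the least abundant member, measured 570.0, 558, 659, 197 and 522 in knockout libraries 1 to 5, against 721, 573, 1105 and 418 in control libraries 1 to 4. Knockout library 4 was lowest and control library 3 highest, with the other libraries between. The clones averaged 501 ± 177 in the knockout and 704 ± 294 in the control (SD, n = 5 and 4; log2 fold change -0.51, SE 0.39, 95% interval -1.37 to 0.36, limma adjusted p = 0.775). RNU6ATAC, which forms part of the catalytic centre of the minor spliceosome, was at 712, 2474, 2523, 735 and 901 in the knockout libraries and 1836, 1902, 2998 and 847 in the control libraries. Its lowest value was in knockout library 1, close to that of knockout library 4. The means were 1469 ± 943 in the knockout clone and 1896 ± 879 in the control clone (SD; log2 fold change -0.48, SE 0.50, 95% interval -1.59 to 0.64, limma adjusted p = 0.818).

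RNU11, the U11 snRNA that recognises the minor 5′ splice site, measured 1996, 4398, 5679, 1978 and 2186 in knockout libraries 1 to 5, against 2670.1, 5806, 4584 and 1376 in control libraries 1 to 4. The 2 highest libraries, knockout 3 and control 2, were close to each other and came from different clones. Means were 3248 ± 1698 in the knockout clone and 3609 ± 1970.1 in the control clone (SD; log2 fold change -0.10, SE 0.47, 95% interval -1.16 to 0.96, limma adjusted p = 0.955). RNU12, the U12 snRNA that pairs with the minor branch site, was at 1787, 5318, 4927, 1801 and 775 in the knockout libraries, against 2219, 5649, 3849.6 and 1262 in the control libraries. It had the widest range of the 8, with the highest library at 7.29 times the lowest, which was knockout library 5. The clones averaged 2921 ± 2057 in the knockout and 3245 ± 1926 in the control (SD; log2 fold change -0.28, SE 0.62, 95% interval -1.66 to 1.11, limma adjusted p = 0.909).

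The long noncoding row named RNU11 (131 bases in GENCODE 29, contained in the 134 of the snRNA) was at 0 in all 9 libraries and was not tested. The long noncoding row named RNU12 is 664 bases long and begins with the 150 bases of the snRNA. It measured 16.3, 62.0, 85.0, 35.1 and 74.4 in the knockout libraries, against 47.8, 132, 132 and 32.5 in the control libraries, and did not pass the test (log2 fold change -0.61, SE 0.58, limma adjusted p = 0.807). How reads are divided between these overlapping rows was not measured.

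All 8 snRNA rows had a negative log2 fold change in the limma fit on the deposited scaling, RNU5A-1 only just (-0.0038). The median was -0.44, against 0.0097 over all tested rows. In the authors' deposited table RNU5A-1 was positive, at 0.14, and the other snRNA members were negative. Over the 9 tested member rows the median ran from -0.73 (without control library 4) to -0.18 (without control library 2) when 1 library was left out. RNU5B-1 ran from -0.98 to -0.17 without the same libraries; RNU4-1, RNU4-2, RNU4ATAC and RNU6ATAC stayed negative as well, between -0.83 and -0.18. That shared sign changed with the scaling. When the libraries were scaled to 5 abundant structural RNAs (RN7SK, RN7SL1, RN7SL2, RPPH1 and RMRP), 7 of the 8 were positive, with a median of 0.054, and RNU4ATAC stayed at -0.015. The factor was the summed reads of these RNAs, most of them 7SL in every library. In knockout library 1, 7SL took 7.48% of all reads and the 5 together 9.05%. The same scaling moved the median of all tested rows to 0.49, so that relative to it the members stayed below the middle of the table. RNU5A-1 and RNU11 were also positive after quantile normalization and after scaling on protein-coding rows alone, and RNU5A-1 with TMM scaling, edgeR and DESeq2. Single libraries turned 3 of the signs: RNU5A-1 was 0.37 without knockout library 5, and also positive without knockout 4 or control 1, 2 or 3; RNU11 was 0.19 without control library 2, and positive without control 3 or knockout 1, 4 or 5; RNU12 was 0.12 without knockout library 5 and 0.063 without control library 2. No member was called under any of these scalings.

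**Figure D2:**
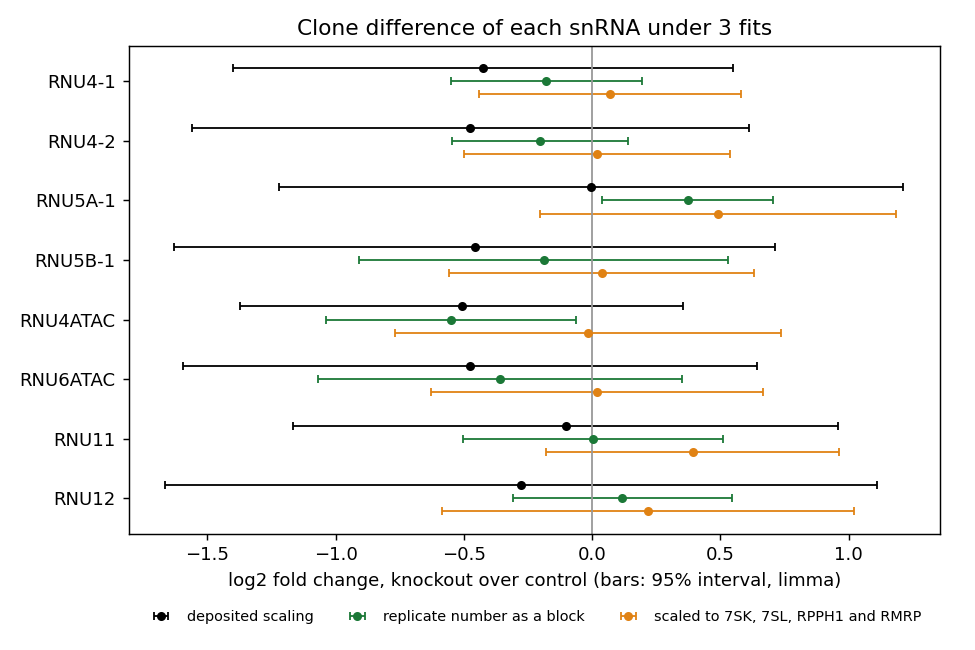
Log2 fold change of knockout over control for each of the 8 snRNAs (points) with 95% intervals (lines), from the deposited scaling, from the blocked fit, and from scaling to 5 structural RNAs. Values on the deposited scaling run from -0.51 to -0.0038, and 7 of the 8 are positive after scaling to structural RNAs.

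The spread between libraries of 1 clone was wider than any clone difference of the 8. The within-clone SD of the log2 values was 0.654 to 1.07 for the 8 snRNAs, with a median of 0.84. It was 0.46 in the median over all tested rows and 0.36 over the 4238 rows averaging 500 normalized counts or more, among which the members stood at the 93.0th to 98.6th percentile. For each member the highest library exceeded the lowest 4.21 to 7.29 times. Control library 4 was the lowest control for 8 of 8 members. Among knockout libraries, 3 was highest for 6 members and 2 for the other 2, and libraries 4 and 5 were below both of them for 8 of 8. The member rows took 0.116, 0.204, 0.241, 0.139 and 0.0999% of all reads in knockout libraries 1 to 5, against 0.180, 0.205, 0.211 and 0.112% in control libraries 1 to 4. The abundant structural RNAs (7SK, 7SL, RNase P and MRP RNA) took 9.050, 14.801, 17.228, 11.915 and 12.023% in the knockout libraries, against 18.068, 15.995, 19.347 and 11.668% in the control libraries, with libraries 2 and 3 again above library 4 in each clone. Their part in the members' values was not tested.

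**Figure D3:**
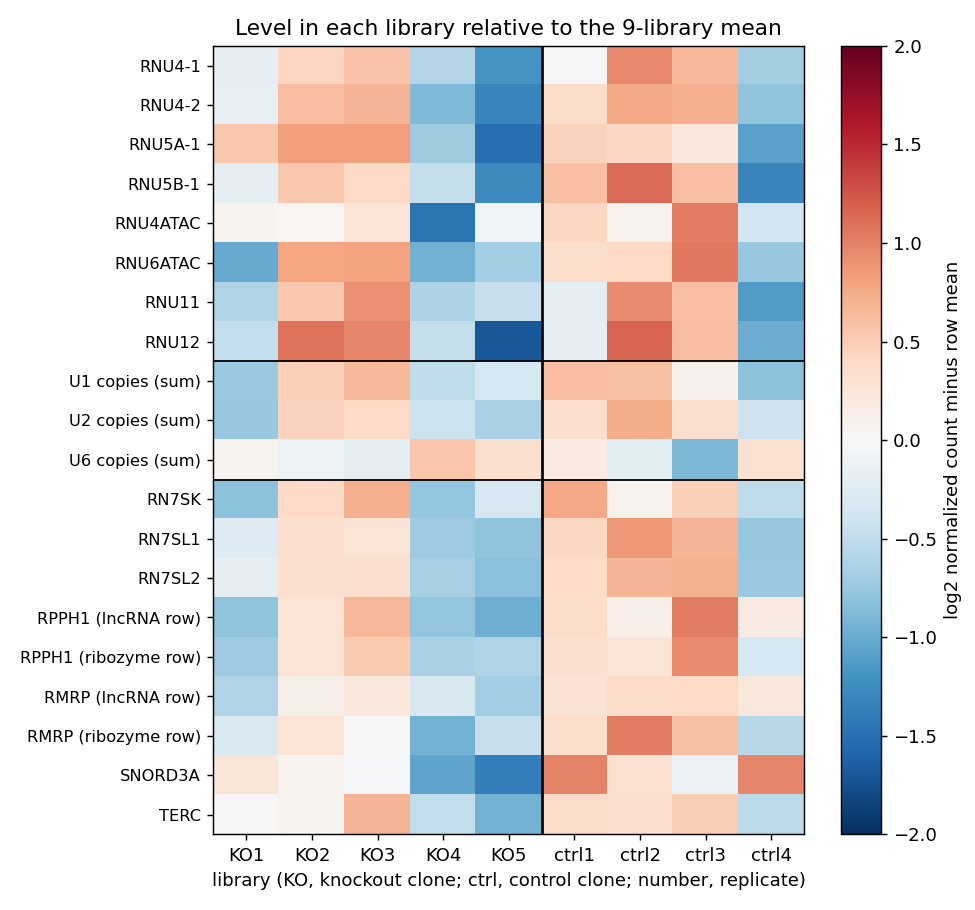
Log2 normalized count, without the added 1, minus the row's mean over 9 libraries (colour), knockout libraries left of control libraries. Shown are the 8 members, the sums over all U1, all U2 and all U6 rows, and structural RNAs. Most members are high in libraries 2 and 3 of both clones and low in library 4 of both and in knockout library 5.

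The labels give the replicate number as a batch, so library n of the knockout clone was also set against library n of the control clone; knockout library 5 has no partner. Of the 32 such differences over 8 members and 4 numbers, 11 were positive. RNU5A-1 was higher in the knockout library of all 4 numbers, by 0.07, 0.41, 0.64 and 0.37 log2 units. RNU4ATAC was lower in all 4 (-0.34, -0.04, -0.74 and -1.08), as was RNU4-2 (-0.54, -0.16, -0.04 and -0.07). RNU5B-1 gave -0.80, -0.59, -0.21 and 0.85, with a change of sign in the last. With the library number as a block term in limma, over 8 libraries, RNU5A-1 stood at 0.37 (95% interval 0.04 to 0.71, adjusted p = 0.409). RNU4ATAC stood at -0.55 in the same blocked limma fit (-1.04 to -0.06, adjusted p = 0.405). The other 6 members had adjusted p from 0.603 to 0.996 in it, so that the block called none of the 8. The long noncoding row named RNU12 stood at -0.77 in this fit (95% interval -1.52 to -0.03, limma adjusted p = 0.432). How many of all tested rows have an interval that leaves out 0 in it was not counted. On these same 8 libraries without the block the log2 fold changes were the same, since the block leaves the mean difference of complete pairs as it is. Standard errors for the 8 members were 0.134 to 0.289 with the block, against 0.409 to 0.546 without it.

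Per length the members fell into a steep order. RNU4-1 averaged 70624 ± 32529 normalized counts per kb in the knockout clone and 94555 ± 43697 in the control clone, and RNU4-2 58189.6 ± 32306 and 76354 ± 30569 per kb (all SD, knockout n = 5, control n = 4). Next came RNU5B-1 with 52356 per kb in the knockout clone and 77218 in the control clone, and RNU5A-1 with 53606 and 48639. Below the U4 and U5 genes came the minor members. RNU11 was at 24236 and 26935 per kb, RNU12 at 19477 and 21632, and RNU6ATAC at 11659 and 15046, in the knockout and control clone. RNU4ATAC closed the order at 3947 ± 1396 in the knockout clone and 5547 ± 2317 in the control clone. RNU6ATAC was above RNU4ATAC in 9 of 9 libraries, and RNU4-1 above RNU4-2, RNU5A-1 above RNU11, RNU11 above RNU12 and RNU12 above RNU6ATAC each in 8 of 9. RNU4-2 was above RNU5B-1, and RNU5B-1 above RNU5A-1, in only 6 of 9, which leaves those neighbours unordered within their spread. Short RNAs enter such libraries with a loss that depends on length and on fragment selection, on which the sources used here are silent, so per-kb levels order these rows and do not count molecules.

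Sums and ratios of the members are given as descriptions. The 8 together measured 34628, 57708, 60066, 23819.6 and 16747 normalized counts in knockout libraries 1 to 5, against 45279.8, 69083, 58228 and 20017 in control libraries 1 to 4. The major members held most of this: the minor share was 21.1 ± 4.30% in the knockout clone and 19.4 ± 2.15% in the control clone (SD). RNU4-1 made up 55.9 ± 3.23% of the U4 pair in the knockout clone and 55.1 ± 4.31% in the control clone (SD). RNU5A-1 made up 57.6, 50, 52.7, 40.7 and 41.0% of the U5 pair in the knockout libraries, against 42.6, 33.3, 38.2 and 49.0% in the control libraries. Knockout libraries 1 to 3 were above all 4 controls and knockout libraries 4 and 5 were below control 4, so the clones overlapped. The ratio of U5 to U4 members was 0.672 ± 0.0886 in the knockout clone and 0.596 ± 0.154 in the control clone (SD).

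Of the RNAs that form pairs in the minor spliceosome, U4atac over U6atac was 0.801, 0.226, 0.261, 0.268 and 0.579 in knockout libraries 1 to 5, against 0.393, 0.301, 0.369 and 0.494 in control libraries 1 to 4. U6atac exceeded its partner in every library, and the knockout libraries lay on both sides of the controls. RNU11 over RNU12 was 1.12, 0.827, 1.15, 1.10 and 2.82 in the knockout libraries and 1.20, 1.03, 1.19 and 1.09 in the control libraries. In 8 of 9 libraries the ratio was near 1, and knockout library 5 stood apart.

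**Figure D4:**
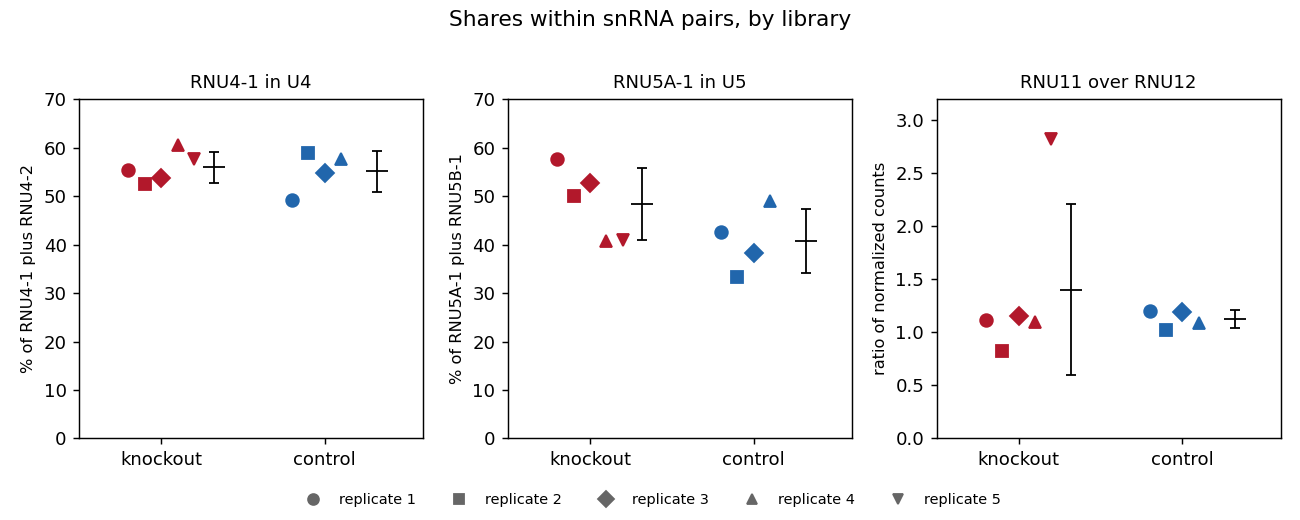
Share of RNU4-1 in the U4 pair and of RNU5A-1 in the U5 pair (percent), and the ratio of RNU11 to RNU12, in each knockout library (left) and control library (right), with points for libraries and bars for the mean ± SD. The U4 share lies between 49.1% and 60.5% in all 9 libraries, and the RNU11 to RNU12 ratio reaches 2.82 in knockout library 5.

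Rows of spliceosomal snRNAs outside the 8 members, gene, variant and pseudogene rows together, number 1671. Most are of U1 (60 tested), U2 (43 tested) and U6 (431 tested), which have no member among the 8. In all, 608 of the 1671 rows were tested. Of these, 1 was called higher in the knockout clone and 0 lower, against 0.54% of all tested rows, and their median log2 fold change was 0.46; DESeq2 called 10, against 2.14% of all rows it tested. The median ran from 0.068 without control library 3 to 0.75 without control library 4. U1, which recognises the 5′ splice site of major introns, has 8 rows with the same values and 1 shared 164-base sequence in GENCODE 29 (RNU1-1, RNU1-2, RNU1-3, RNU1-4, RNU1-27P, RNU1-28P, RNVU1-18 and RNVU1-29). Each measured 36572, 78760.3, 93888, 43251 and 47418 in knockout libraries 1 to 5, against 93452, 90017, 63174 and 32495 in control libraries 1 to 4 (log2 fold change -0.20, limma adjusted p = 0.901). Knockout libraries 2 and 3 were again the highest of their clone and control library 4 the lowest. U2 pairs with the branch site of major introns, and its rows were chosen after their values were seen. RNU2-2P was at 22837 ± 11756 normalized counts in the knockout clone and 33241 ± 12396 in the control clone (log2 fold change -0.60, limma adjusted p = 0.760), and RNU2-1 at 7878 ± 3439 and 9645 ± 2951 (-0.35, limma adjusted p = 0.810).

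U6, the catalytic partner of U4, is spread over 1276 rows, of which 431 were tested. Limma and edgeR called 0 of them, against 0.54% and 0.544% of all tested rows. DESeq2 called 7 higher and 0 lower (2.14% over all rows it tested), and 33 had an unadjusted p under 0.05 in limma (8.63% over all tested rows). Their median log2 fold change was 0.60, with a positive value in most. The sum over all U6 rows was 72834, 65154, 61667, 102613 and 87558 in the knockout libraries, against 78114, 59784, 37278 and 86594 in the control libraries. Knockout library 4 and control library 4, low for the members, were the highest of their clones in this sum, which takes gene and pseudogene rows together. The gene rows RNU6-1, RNU6-2 and RNU6-9, also chosen after their values were seen, share their values. They were at 513 ± 165 in the knockout clone and 543 ± 294 in the control clone (log2 fold change 0.01, limma adjusted p = 0.994). Unlike in the sum, knockout library 4 and control library 4 were near or at the low end of these rows. Each measured 624, 487, 732, 333 and 387 in knockout libraries 1 to 5, against 949, 426, 537 and 260 in control libraries 1 to 4. RNU6-7 and RNU6-8 share theirs, at 209 ± 215 in the knockout clone and 422 ± 262 in the control clone (log2 fold change -1.45, limma adjusted p = 0.669).

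The 1 called row was RNU4-21P, a U4 pseudogene copy inside ABCB10 on the same strand (chr1:229535064-229535189, 126 bases, no exon of ABCB10 touched). It aligned to RNU4-1 with 107 identical bases and 17 mismatches. It measured 105, 81.2, 51.2, 66.5 and 114 normalized counts in knockout libraries 1 to 5, against 0 reads in all 4 control libraries. Against a floor of 3 reads over the control group this is higher by a lower bound of about 101-fold (limma adjusted p = 5.7e-05, and 0.022 with the replicate block). With no control reads, the row passed the expression filter through the knockout libraries alone. The level was 83.7 ± 26.3 in the knockout clone (SD, n = 5), far below that of either U4 gene there.

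The proteins that build and process these particles did not pass the test in either direction. Across 7 lists, 116 genes were tested. Limma, edgeR and DESeq2 each called 0, against 0.54%, 0.544% and 2.14% of all rows each tested. None had an unadjusted p under 0.05 in limma, against 8.63% of all tested rows. In none did the libraries of the clones separate, against 3.95%. The 116 genes had a median log2 fold change of -0.12, against 0.0097 over all tested rows, and a median within-clone SD of the log2 values of 0.35. All 8 core Sm proteins had negative values (median -0.26, and -0.013 without control library 3). SNRPE, an Sm ring subunit, measured 1356 ± 371 normalized counts in the knockout clone and 1879 ± 761 in the control clone (log2 fold change -0.43, limma adjusted p = 0.75). SNRPF, its neighbour in the ring, measured 470.1 ± 113 in the knockout clone and 574 ± 179.9 in the control clone (log2 fold change -0.27, limma adjusted p = 0.80).

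Of the LSm proteins that bind U6 and U6atac, 7 of 7 were negative (median -0.27, and -0.030 without control library 3). LSM7 was at 1386 ± 352 in the knockout clone and 2010.3 ± 877 in the control clone (log2 fold change -0.48, limma adjusted p = 0.69), and LSM5 at 874 ± 222 in the knockout clone and 1106 ± 388 in the control clone (log2 fold change -0.31, limma adjusted p = 0.80). Among proteins of the U4, U5 and U6 particles 13 of 17 were negative (median -0.09). CD2BP2, a U5 assembly factor, stood at 241 ± 40.7 in the knockout clone and 333 ± 123 in the control clone (log2 fold change -0.41, limma adjusted p = 0.71). PRPF6, which bridges U5 with the U4 and U6 particle, stood at 389 ± 43.6 in the knockout clone and 507 ± 173 in the control clone (log2 fold change -0.33, limma adjusted p = 0.72). For the U1 and U2 particles 13 of 15 were negative (median -0.18). SF3B5, a subunit of the branch site complex SF3b, averaged 879 ± 271 in the knockout clone and 1243 ± 637 in the control clone (log2 fold change -0.44, limma adjusted p = 0.77), and SNRPA1, the U2 A′ protein, 1499 ± 191 in the knockout clone and 1889.7 ± 754 in the control clone (log2 fold change -0.27, limma adjusted p = 0.79).

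The proteins of the minor spliceosome split evenly, 7 of 14 negative with a median of -0.01. ZRSR2, which recognises the 3′ splice site of minor introns, was at 74.6 ± 13.2 in the knockout clone and 86.1 ± 14.0 in the control clone (log2 fold change -0.21, limma adjusted p = 0.80). TXNL4B, a minor spliceosome factor related to the U5 protein TXNL4A, was at 111 ± 33.4 in the knockout clone and 137 ± 40.9 in the control clone (log2 fold change -0.30, limma adjusted p = 0.80). Of the factors that transcribe snRNA genes and cut their 3′ ends, 17 of 28 were negative (median -0.02). ICE1, a scaffold of the little elongation complex at snRNA genes, measured 469 ± 52.9 in the knockout clone and 554 ± 65.2 in the control clone (log2 fold change -0.24, limma adjusted p = 0.69). INTS4, a subunit of the Integrator complex that cuts pre-snRNAs, measured 386 ± 36.7 in the knockout clone and 322 ± 53.8 in the control clone (log2 fold change 0.27, limma adjusted p = 0.69). Of the export and SMN assembly factors 25 of 27 were negative (median -0.17). PHAX, the export adaptor for capped snRNAs, stood at 343 ± 81.5 in the knockout clone and 468 ± 164 in the control clone (log2 fold change -0.42, limma adjusted p = 0.72), and GEMIN7, a subunit of the SMN complex, at 331 ± 60.6 in the knockout clone and 452 ± 178 in the control clone (log2 fold change -0.40, limma adjusted p = 0.72). Scaling to the 5 structural RNAs moved all rows upward together: the medians of the 7 lists became 0.23 to 0.48, each still below the 0.49 of all tested rows. Without control library 3 the median of 5 lists was positive, from 0.051 (U1 and U2 particles) to 0.087 (minor spliceosome).

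Of the other abundant structural RNAs 9 of 9 tested rows were negative on the deposited scaling, while RN7SK and the RMRP ribozyme row were positive after quantile normalization. Scaling to the 5 structural RNAs fixes most of these rows near 0 by construction; TERC, not among the 5, was then at 0.19, below the 0.49 of all tested rows. Limma, edgeR and DESeq2 called 0 of the 9, against 0.54%, 0.544% and 2.14% of all rows each tested. In limma 2 of them, SNORD3A and the long noncoding RMRP row, had an unadjusted p under 0.05, against 8.63% of all tested rows. RN7SK, which restrains the elongation factor P-TEFb, measured 374106 ± 182789.6 in the knockout clone and 462599 ± 165317 in the control clone (log2 fold change -0.37, limma adjusted p = 0.86). The 7SL RNAs of the signal recognition particle were RN7SL1 at 1111661 ± 404446 in the knockout clone and 1655707 ± 664072 in the control clone (log2 fold change -0.53, limma adjusted p = 0.83) and RN7SL2 at 1244272 ± 449354 in the knockout clone and 1749753 ± 656114 in the control clone (log2 fold change -0.47, limma adjusted p = 0.85). RPPH1, the RNA of RNase P, was at 183459 ± 78249 in the knockout clone and 259774 ± 94223 in the control clone (log2 fold change -0.53, limma adjusted p = 0.78) in its ribozyme row and at 2401 ± 1307 in the knockout clone and 3713 ± 1189 in the control clone (log2 fold change -0.74, limma adjusted p = 0.65) in its long noncoding row. RMRP, the RNA of RNase MRP, was at 123326 ± 38069 in the knockout clone and 198895 ± 82124 in the control clone (log2 fold change -0.64, limma adjusted p = 0.73) in its ribozyme row. Its long noncoding row, at 15874 ± 4509 in the knockout clone and 22977 ± 1253 in the control clone (log2 fold change -0.58, limma adjusted p = 0.51), was the one whose libraries did not overlap between the clones, as those of 3.95% of all tested rows did not. SNORD3A, the U3 RNA of ribosomal RNA processing, was at 14877 ± 6529.8 in the knockout clone and 27916 ± 9744 in the control clone (log2 fold change -0.97, limma adjusted p = 0.53). TERC, the RNA of telomerase, was at 593 ± 250.3 in the knockout clone and 707 ± 195 in the control clone (log2 fold change -0.31, limma adjusted p = 0.82). RNU7-1, the U7 RNA of histone pre-mRNA processing, was at 0 in all 9 libraries.

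Among 15520 candidate rows averaging 50 normalized counts or more, the 3 whose log2 values followed the mean of the tested members most closely over the 9 libraries were TCP11L1, RSL1D1 and RN7SL2, as a description with Pearson's r of 0.976, 0.97 and 0.969. All values of a library share its depth and size factor. RSL1D1, a nucleolar protein, measured 2655, 3585, 3632, 2410.4 and 2327 in knockout libraries 1 to 5, against 3570.1, 3741, 4327 and 2437 in control libraries 1 to 4. Its libraries 2 and 3 were the highest in each clone, as for most of the snRNAs, over a narrower range. RN7SL2 had 1201213, 1695729, 1709287, 854176 and 760956 in the knockout libraries, against 1790192, 2186142, 2213372 and 809305 in the control libraries. Each member was also set against the mean of the other 7: r was lowest for RNU4ATAC (0.575) and highest for RNU4-2 (0.987), over the same 9 libraries. For RNU4-2 the other 7 include RNU4-1, with which it can share reads. What this adds to r was not measured.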

How the data were processed

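Total RNA was depleted of ribosomal RNA and sequenced with a stranded kit, per the labels' protocols. The submitters' processing notes name fastp, kallisto, DESeq2 and hg38; of their versions, roles, the annotation release and strand use in counting, the sources used here say nothing. The deposited values are a normalized signal, gene counts divided by 1 size factor per library. Every value was a whole multiple of its library's smallest value above 0 (tolerance 1e-06), which recovered whole counts, called reads here. Library totals are their sums over rows. Whether they are observed reads or rounded estimates was not measured. The deposited table also holds the authors' log2 fold changes, test scores and p-values.

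Rows were kept by edgeR's filterByExpr (minimum count 10). The test was limma (3.58.1, R 4.3.3) with a mean trend on log2(normalized count + 1), clone as the only term, Benjamini-Hochberg adjusted over 27777 rows, called at adjusted p under 0.05, after a check on simulated data. Alternatives were edgeR (4.0.16) and DESeq2 (1.42.0) on the recovered reads, other pseudocounts, filters and scalings, the replicate block, and leaving out each library. The labels give the replicate number as a batch, which was taken to pair the libraries. The correlation of same-numbered libraries, after the mean of each clone was removed, was 0.07, 0.02, 0.25 and 0.33. For unlike numbers it ran from -0.29 (knockout 4 with control 3) to 0.21 (knockout 5 with control 4), so these ranges overlap.

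Members and lists were chosen with earlier results of these data known. Named besides the 8 members were the 6 most abundant other snRNA rows (all within 8 U1 rows of equal value, so all 8 were named), those called, the 2 smallest p of each protein list with no call, all comparator RNAs, and the 3 rows most like the members; the U2 and U6 gene rows were added after their values were seen. Positions and sequences come from GENCODE 29; some are not reported here.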

Additional observations from a re-analysis of the deposited data

Results flagged for a closer look

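RNU11 over RNU12 was 2.82 in knockout library 5, far from the other 4 knockout libraries, which lay between 0.827 and 1.15; the control libraries lay between 1.03 and 1.20. The gap to the nearest library was 0.837 of the whole range of the knockout libraries, above Dixon's limit of 0.71 for 5 samples. RNU12 was at 775 and RNU11 at 2186 normalized counts in that library. It was the only one of 58 groups of libraries examined to pass this limit, and chance passes about 1 in 20.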

How the results depend on the processing

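No member was called under any alternative run, and the adjusted p of the 8 ran from 0.353 to 1.000 over them. Log2 fold changes changed sign as follows. Scaling to 5 structural RNAs gave RNU4-1 0.069, RNU4-2 0.020, RNU5A-1 0.49, RNU5B-1 0.038, RNU6ATAC 0.019, RNU11 0.39, RNU12 0.22, RN7SK 0.13, RN7SL2 0.028 and TERC 0.19, with medians of 0.038 over the 9 member rows, 0.24 for Sm, 0.23 for LSm, 0.41 for U4, U5 and U6, 0.31 for U1 and U2, 0.48 for minor spliceosome, 0.47 for transcription and processing and 0.33 for export and SMN proteins. Quantile normalization gave RNU5A-1 0.28, RNU11 0.15, RN7SK 0.063 and the RMRP ribozyme row 0.30, with medians of 0.084 (U4, U5 and U6), 0.022 (U1 and U2), 0.042 (minor) and 0.069 (transcription). Protein-coding TMM scaling gave RNU5A-1 0.10 and RNU11 0.0023, with medians of 0.017 (U4, U5 and U6), 0.094 (minor) and 0.083 (transcription), and moved the median of all tested rows to 0.11. TMM over all rows gave RNU5A-1 0.043, with medians of 0.036 (minor) and 0.024 (transcription). RNU5A-1 was 0.18 by edgeR, with a transcription median of 0.0030, and 0.16 by DESeq2. The replicate block, which also leaves out knockout library 5, gave RNU5A-1 0.37, RNU11 0.0030 and RNU12 0.12, with a minor median of 0.031; leaving out that library without a block gave the same values, and neither changed a call of a member.

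Over all tested rows, 37 were called with structural RNA scaling, 593 by DESeq2 and 43 with the replicate block, against 150. Of the other snRNA rows, 2 were called with a pseudocount of 5 and 10 by DESeq2, against 1. Leaving out 1 library at a time gave 79 to 186 calls over all rows (79 to 95 without control 1, 2 or 3 or knockout 2, 4 or 5) and 1 to 4 among the other snRNA rows (4 without control 4 or knockout 3). RNU5A-1 then ran from -0.37 to 0.37, RNU11 from -0.50 to 0.19 and RNU12 from -0.66 to 0.12. The medians ran from -0.73 to -0.18 (members), 0.068 to 0.75 (other snRNA rows), -0.39 to -0.013 (Sm), -0.51 to -0.030 (LSm), -0.20 to 0.086 (U4, U5 and U6), -0.34 to 0.051 (U1 and U2), -0.16 to 0.087 (minor), -0.061 to 0.068 (transcription) and -0.29 to 0.063 (export and SMN). Structural RNA scaling moved the median of all tested rows to 0.49, so the signs under it are set against that. Causes were otherwise not tested. RNU4-21P stayed called under each alternative, with adjusted p from 7.0e-13 to 0.022. It had no control reads and passed the expression filter through the knockout libraries alone, so its calls in these runs are not separate support. The 8 snRNA rows held at least 264 reads in every library.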
